A study of Mus musculus with 2 samples.

Results

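The constitutive proteasome genes were taken by symbol, as every gene whose name begins with Psma, Psmb, Psmc or Psmd and a digit, without the interferon-inducible subunits Psmb8, Psmb9 and Psmb10. Of 20649 genes with a named probe, 37 met this rule, and 36 of them were well above background on both arrays. The gene below background was Psmb11, the beta subunit of the thymoproteasome of thymic cortical epithelium, with a signal of 4.30 in the PBS pool and 3.42 in the SiO2 pool. A further 6 symbols that the rule takes are pseudogenes with no named probe. Of the 36 measured genes, 34 belong to the constitutive proteasome or its assembly. Psma8 encodes the alpha subunit of the testis proteasome, and Psmc3ip encodes Hop2, a meiotic recombination factor named for binding the Psmc3 protein and no subunit of the complex.

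The proteasome is the protease that degrades proteins tagged with ubiquitin. Its 20S core is a barrel of outer alpha rings, which gate the entry, and inner beta rings, which hold the cutting sites. The 19S regulatory particle caps the barrel: its lid removes ubiquitin, and the ATPases of its base unfold the substrate and thread it into the core. The immunoproteasome holds interferon-inducible cutting subunits in place of the constitutive ones and favours peptides for MHC class I. Maturing red cells use the proteasome to clear proteins they no longer need.

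The data were 2 one-colour arrays on the same slide. The control group was spleen tissue of female mice treated with phosphate-buffered saline (PBS), and the other group was spleen tissue of female mice treated with silica (SiO2), which the labels call remodelled. Both were taken on day 19 counted from the first of the injections, and 5 spleens were pooled for each group. Strain, age, dose and genotype are not stated in the sources used here. The extraction kit was one for blood, with separate lysis of red and white cells, and globin transcripts were removed from both pools. With 1 array for each group there was no replicate, no test and no error between animals, so every difference is described by its size, and precision is limited by the number of arrays. A difference is a log2 signal in SiO2 minus the one in PBS after each array was set relative to its own 75th percentile.

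That percentile stood at 669.5 signal units in PBS and at 469.3 in SiO2, so equal unscaled signals stand for a higher value in the SiO2 pool. Splenic identity was present on both arrays: 10 of 10 B cell markers, 9 of 10 T cell markers and 5 of 5 genes of the splenic stroma were measured above background. Markers of several cell types differed between the pools. Of the erythroid markers 9 of 9 were higher by 1.5-fold or more with SiO2, and their summed signal, in multiples of the 75th percentile, was 58.1 in PBS and 192 in SiO2. Cell cycle markers were so for 9 of 10 genes (46.6 and 119) and neutrophil markers for 8 of 9 (84.7 and 194). Interferon-stimulated genes were at least 1.5-fold lower for 8 of 9 genes (82.0 and 36.5). B cell markers had a median difference of -0.48 and T cell markers one of -0.26. Median differences were -1.88 for 7 markers of NK cells, -0.86 for 8 of red pulp macrophages, -3.85 for 7 of mesothelium, of which 4 were above background in SiO2 and the others stand at a bound, and 1.32 for 8 of fibroblasts. Under normexp the medians were -0.98 for NK cells and -1.13 for mesothelium. In such bulk samples fewer cells of a type and less RNA per cell cannot be told apart, and the part of these cell types in the values below was not tested.

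The constitutive proteasome as a whole differed little between the pools, and the medians of its classes ranged from below 0 in the alpha ring to well above it for the base chaperones. The median difference over the 36 genes was 0.13, against 0.03 over all 16774 named genes above background, and the members ranged from -0.32 for Psma5 to 1.07 for Psmd9. Under normexp background correction the medians were 0.13 for the members and 0.18 for all named genes, so which was higher depends on the setting. Higher by 1.5-fold or more with SiO2 were 3 of 36 members, against 16.0% of all genes. Lower by as much were 0 of 36, against 12.3%. At 2-fold there was 1 member on the higher side, against 6.62% of all genes, and 0 on the lower side, against 3.69%. The members' middle range, from the lower to the upper quartile, ran from -0.01 to 0.42, and that of all genes from -0.32 to 0.39. Above 0 were 26 members and below 0 were 10, against 52.3% of all genes above 0. With the B and T cell markers set to a median difference of 0, which adds 0.35 to each value, all 36 were above 0, against 77.2% of all genes, and 13 were at least 1.5-fold higher, against 35.4%.

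These arrays give an error between repeated spots. Among 304 probes printed several times, the standard deviation of the difference over spots was 0.062 at the median and 0.254 at the 95th percentile. Each member's probe was printed once on each array. Beyond 0.254 lay 13 of the 36 members on the higher side, against 33.8% of all genes, and 2 on the lower side, against 29.0%. This error covers repeated spots only, not the spread between pools of animals or between probes of a gene. For the 8 members with several probes, the median gap between their probes was 0.31, and for 2 of them the probes had opposite signs.

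**Figure D1:**
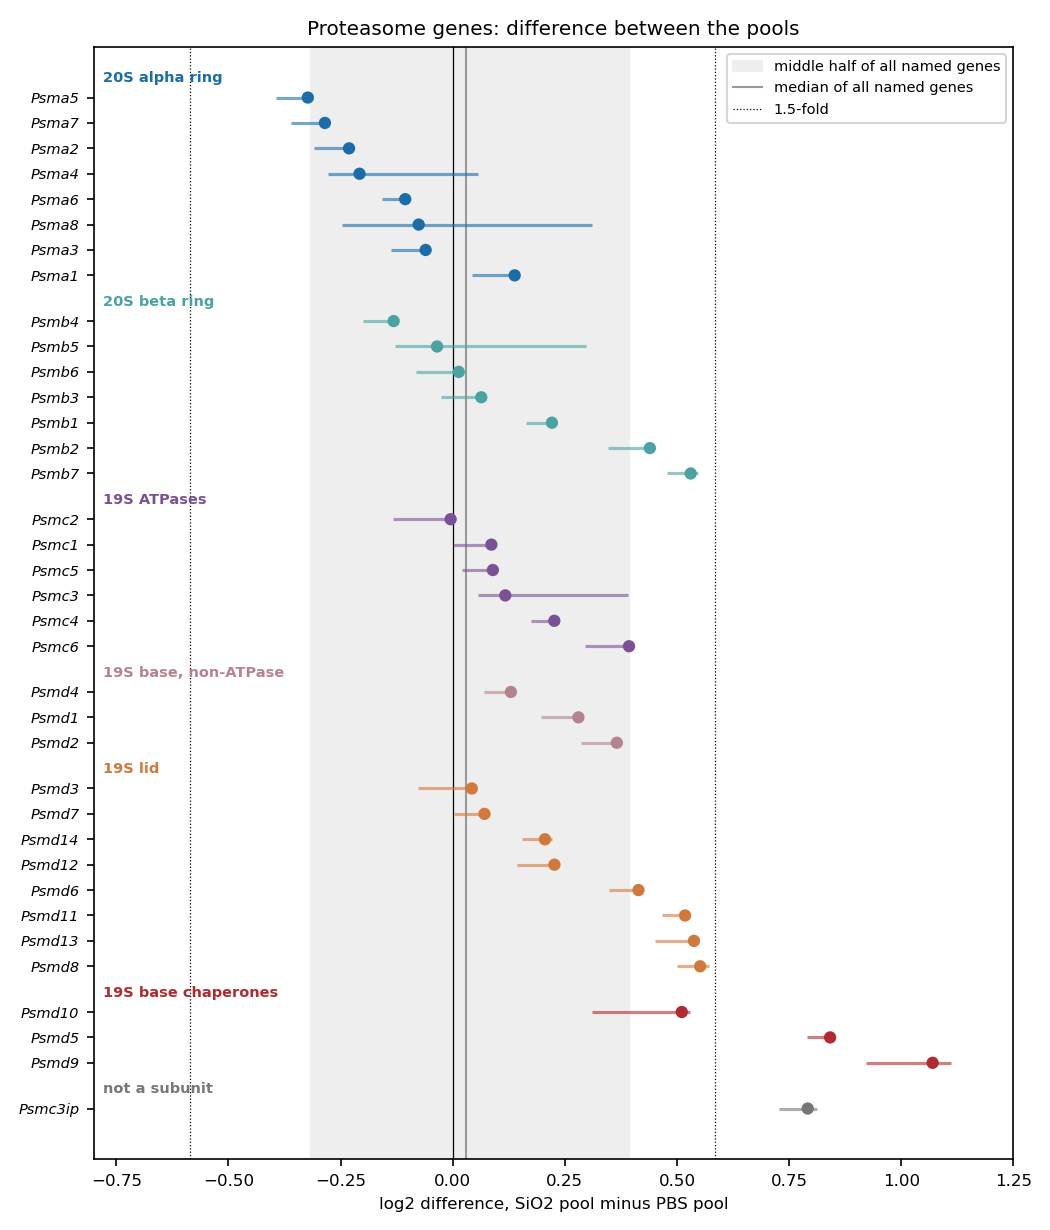
Log2 difference of each of the 36 measured genes between the SiO2 and the PBS pool (horizontal axis, points), grouped by place in the complex, with a line for the range over 9 processing alternatives that leave the scaling to lymphocyte markers out. The shaded band is the range between the quartiles of all named genes, from -0.32 to 0.39, and the dotted lines mark 1.5-fold: Psmd9, Psmd5 and Psmc3ip lie beyond it on the higher side, and no gene does on the lower side.

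The alpha ring was the class with the lowest values. Of its 8 genes, 7 were below 0, with a median of -0.16. Psma5 had an unscaled signal of 13900.5 in PBS and 7789 in SiO2, a difference of -0.32. Psma7, which shares a place in the ring with the testis subunit Psma8, had signals of 5731 and 3298 and was 1.22-fold lower. Psma2 had signals of 8061 and 4814, a difference of -0.23. These genes of the outer ring were all lower by a modest amount, and none reached 1.5-fold; with lymphocyte marker scaling all were above 0. Psma4 had a difference of -0.21 by its brightest probe (signals 4085 and 2479) and of 0.32 by its other probe (693 and 607), so its direction depends on the probe. Psma6, at -0.11 (2901 and 1890), and Psma3, at -0.06 (13783 and 9266), lay nearer to 0. Psma1 was the only alpha gene above 0, at 0.14, with signals of 10867 and 8383. Psma8 was near background in both pools, at 20.2 and 13.4, and its difference of -0.08 turned to 0.31 under normexp background correction.

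The beta ring held genes near 0 and a pair that was higher. Its cutting subunits are Psmb6 (beta1, caspase-like), Psmb7 (beta2, trypsin-like) and Psmb5 (beta5, chymotrypsin-like). Psmb6 had signals of 19163.5 in PBS and 13560.2 in SiO2, a difference of 0.01. Psmb5 had 15654 and 10712, a difference of -0.03, and its other probe gave 0.32 with 2238 and 1956. Psmb7 had 353 and 358 and was 1.44-fold higher. By their brightest probes the cutting subunits thus did not move by the same amount. Psmb7 rests on 1 probe, far dimmer than those of Psmb5 and Psmb6, and the other probe of Psmb5 was nearer to Psmb7. Among the subunits with no cutting site, Psmb2 was 1.36-fold higher, with signals of 12319.5 and 11712. Psmb1 was at 0.22 (3142 and 2568), Psmb3 at 0.06 (5341 and 3913) and Psmb4 at -0.13 (10640.2 and 6808). The median of the 7 beta genes was 0.06, with 5 of them above 0, and with 4 under normexp, array median scaling or cyclic loess, 3 after quantile normalization and 6 when the probes of each gene were averaged. The deposited values had 4 of these genes, with a median of 0.32 and 3 above 0.

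The immunoproteasome counterparts of the cutting subunits were lower in the same pools. Psmb9, which takes the place of Psmb6, was 2.17-fold lower, with signals of 8070 and 2604. Psmb10, which takes the place of Psmb7, was 2.98-fold lower, with 12803.5 and 3010.2. Psmb8, which takes the place of Psmb5, was 1.76-fold lower, with 7772 and 3103. With lymphocyte marker scaling the log2 differences were -0.76 for Psmb9, -1.22 for Psmb10 and -0.46 for Psmb8, which then did not reach 1.5-fold. The constitutive gene's difference exceeded that of its counterpart by 1.13 for Psmb6 over Psmb9, by 2.11 for Psmb7 over Psmb10 and by 0.78 for Psmb5 over Psmb8 on the log2 scale. Over the alternatives these values ranged from 1.09 to 1.13, from 2.11 to 2.17 and from 0.74 to 1.19. Both genes of a pair were measured on the same arrays, so these gaps do not depend on the constant by which an array is scaled. The interferon-stimulated markers given above were lower in the same pool, and their part in these values was not tested.

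**Figure D2:**
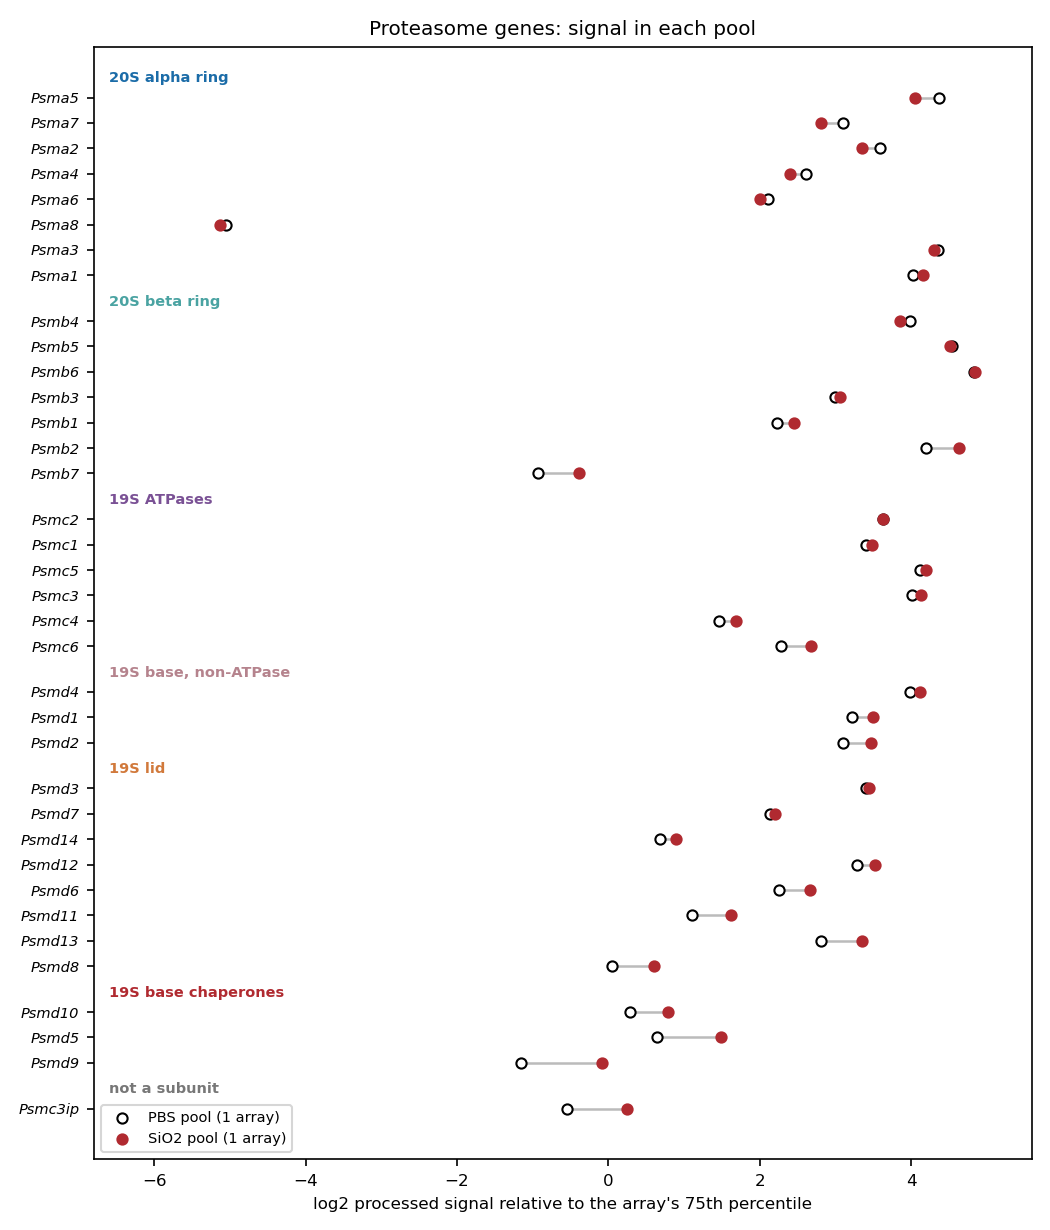
Log2 signal of each of the 36 measured genes with the array's 75th percentile as 0 (horizontal axis), in the PBS pool (open points) and the SiO2 pool (filled points), grouped by place in the complex. In the alpha ring 7 of 8 filled points lie left of the open ones, and in the lid all 8 lie right of them, Psmd3 by a margin that turned under other scalings. Distances along the axis between genes also reflect the probes and are not compared.

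The ATPases of the 19S base, which form the ring that unfolds substrates, lay close to 0 or slightly above. Psmc6 had signals of 3263 and 3004 and was 1.31-fold higher. Psmc4 was at 0.23 (1841 and 1510.2), Psmc3 at 0.12 (10808 and 8218), Psmc5 at 0.09 (11608 and 8658) and Psmc1 at 0.09 (7068 and 5260). Psmc2 was at -0.0046, with signals of 8312 and 5808. The median of the 6 ATPases was 0.10. The other probe of Psmc3 gave 0.66 (4869 and 5408), that of Psmc1 0.06 and that of Psmc2 -0.26. The scaffold subunits of the base were higher than most ATPases: Psmd2 was at 0.37 (5774 and 5216) and Psmd1 at 0.28 (6253 and 5323). Psmd4, the ubiquitin receptor Rpn10, was at 0.13 (10596 and 8127).

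All 8 genes of the lid were above 0, with a median of 0.32, though Psmd3 was below 0 under normexp, array median scaling, quantile normalization and in the deposited values. Psmd8 had signals of 694 and 713 and was 1.47-fold higher. Psmd13 had 4708 and 4791 and was 1.45-fold higher, and Psmd11, the subunit that clamps the 19S particle to the core, had 1443 and 1449 and was 1.43-fold higher. These genes had nearly equal unscaled signals in the pools, on a SiO2 array that was dimmer in general. Psmd6 was at 0.41 (3188 and 2978) and Psmd12 at 0.23 (6563 and 5384), or 0.14 by its other probe. Psmd14, the enzyme Rpn11 that cuts ubiquitin chains off the substrate, was at 0.21 (1077 and 870). Its partner Psmd7 was at 0.07 (2934 and 2160), and Psmd3 at 0.04 (7107 and 5131). No lid gene reached 1.5-fold. Lid and base subunits with other symbols had similar values: Sem1 was at 0.23 (20087 and 16505) and the ubiquitin receptor Adrm1 at 0.26 (7401 and 6207). The median over the 17 Psmc and Psmd subunits of the 19S particle was 0.23, with 16 above 0, and that over the 15 genes of the 20S core was -0.06, with 6 above 0.

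The largest differences of the family were those of Psmd9 and Psmd5, which with Psmd10 are chaperones that build the base and leave before the particle is complete. Psmd9 had a signal of 300.4 in PBS and 442 in SiO2 and was 2.10-fold higher, with 1.15 on the log2 scale for its other probe (136 and 211). Psmd5 had 1049 and 1318 and was 1.79-fold higher. Psmd10, also known as gankyrin, had 815 and 814 and was 1.42-fold higher, while its other probe (765 and 578) had a log2 difference of 0.11. Psmd9 and Psmd5 were thus higher in the SiO2 pool even in unscaled signal. The chaperones of the 20S core lay on the other side of 0. All 5 that were measured were lower, and by their brightest probes 3 of them remained so with lymphocyte marker scaling. Psmg4 was 1.55-fold lower (3838 and 1740.4), Psmg1 was at -0.44 (3274 and 1697) and the maturation factor Pomp at -0.40 (22914 and 12205). The other probes of Psmg1 (2718 and 1600) and Pomp (254 and 156) gave -0.25 and -0.19. Lymphocyte marker scaling adds 0.35, so by these probes both genes would lie above 0. By its brightest probe Pomp then stood at -0.04. Psmg2 was at -0.23 (1490.3 and 888) and Psmg3 at -0.05 (1161 and 786). Psmc3ip, the gene taken by its symbol only, had 460 and 558 and was 1.73-fold higher, and the median of the family was 0.13 with and without it and Psma8.

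With the classes joined into 20S core, 19S subunits and base chaperones, the order of the medians was the same under the 10 alternatives of processing. The median of the 20S core was below that of the 19S subunits, and that of the 19S subunits below that of the base chaperones. Scaling by the array median or by lymphocyte markers adds a constant and cannot change this order. Leaving out the filter, or requiring a signal above background on both arrays, left these medians as they were. Keeping flagged spots shifted them alike. The settings that changed the spacing of the medians were normexp, quantile normalization, cyclic loess, probe averaging and the deposited values. The values were -0.14 for the core, 0.17 for the 19S subunits and 0.83 for the chaperones in the authors' deposited log2 values, and -0.11, 0.22 and 0.85 after cyclic loess. The finer classes kept their order under the other alternatives but not in the deposited values. There the beta ring, at 0.32, was above the lid, at 0.19, and the ATPases, at 0.04. These values lacked Psmb1, Psmb3 and Psmb4 of the beta ring and Psmd11 of the lid. Psmb5 was at 0.30 in them, against -0.03 in the main setting. The part of the missing genes and of Psmb5 in this order was not tested. The deposited values had a match for 28 of the 36 members, and Psmd5 was then the single chaperone and the single member at least 1.5-fold higher (13.0% of all genes in these values), since Psmd9, Psmd10 and Psmc3ip were not among the 28.

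The classes differ in brightness, which moved with the differences. Over the 36 genes the difference correlated with the mean log2 signal of the pools at a Pearson r of -0.41 and a Spearman rho of -0.49, as a description over genes that share both arrays. Over all named genes these were -0.06 and -0.10. After cyclic loess, which removes a trend with signal over all genes, they were -0.40 and -0.53 over the members. The 18 members that were dimmer in PBS, with signals from 20.2 to 5341, had a median difference of 0.40, and the 18 brighter ones, from 5731 to 19163.5, one of 0.06. The part of brightness in the class values was not tested.

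**Figure D3:**
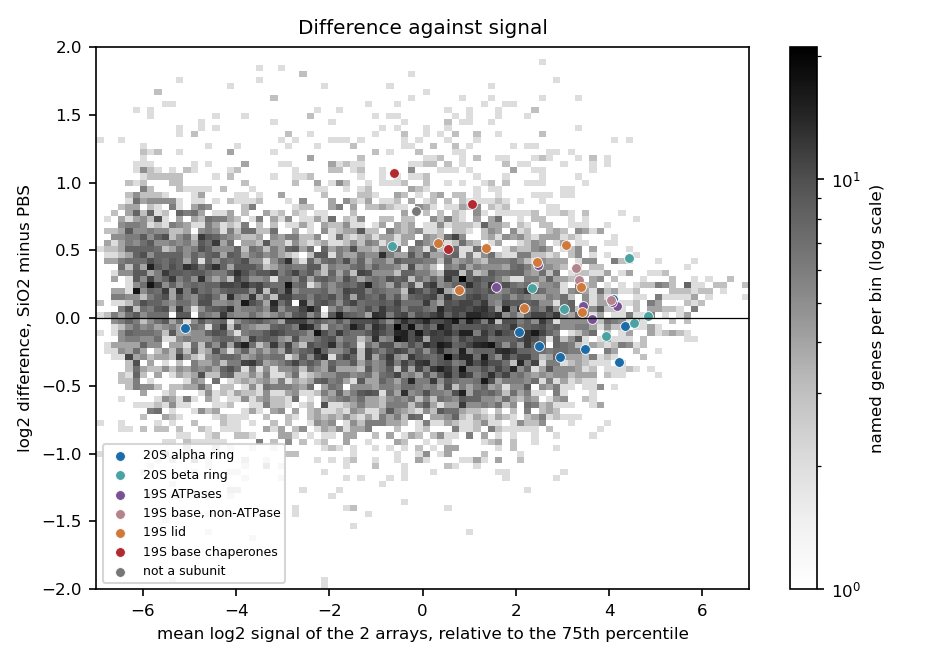
Log2 difference between the pools (vertical axis) against the mean log2 signal of both arrays (horizontal axis) for the 36 measured genes, coloured by place in the complex, over a density of all named genes in grey on a log scale. The alpha genes other than Psma8 lie among the bright probes and mostly below 0, and the base chaperones lie in the middle of the signal range and above it.

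Some proteins that act with the proteasome gave larger differences, in both directions: 2 of the 5 activators and inhibitor were at least 1.5-fold higher and 1 lower. Psmf1, the proteasome inhibitor PI31, had signals of 107 and 187 and was 2.49-fold higher. Psme4, the activator PA200, had 220.01 and 307 and was 1.99-fold higher, while its other probe had a log2 difference of 0.65. The interferon-inducible activator of the PA28 type was lower: Psme1 was 1.65-fold lower (15688 and 6656), and its partner Psme2 was at -0.35 (31445 and 17294), or -0.80 by its other probe. Psme3, the nuclear PA28, was at -0.38 (8779 and 4737). Lymphocyte marker scaling adds 0.35, so by the brightest probes Psme1 would then not reach 1.5-fold lower, and Psme2 and Psme3 would lie near 0. The segregase Vcp, which extracts ubiquitin-tagged proteins from complexes, was at -0.05. The deubiquitinases that dock on the 19S particle were at 0.43 for Usp14, or 0.90 by its other, dimmer probe, and 0.28 for Uchl5. Under normexp, Psmf1 was at 1.05 and Psme4 at 0.79 on the log2 scale.

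The genes that control or feed the proteasome lay near 0. Nfe2l1, which encodes NRF1, the factor that raises proteasome genes when degradation falls short, had signals of 46.3 and 28.9 and a difference of -0.17, which turned to 0.23 under normexp. Ddi2, the protease that activates NRF1, had the highest value of that list at 0.52, and Keap1 the lowest at -0.25. Of the 5 genes of this list, none reached 1.5-fold. Ubb was at 0.41 by its brightest probe and 0.03 by its other probe, and the E1 enzyme Uba1 was at -0.10.

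Other large complexes gave a scale for these values. The COP9 signalosome and the translation factor eIF3 share the scaffold architecture of the proteasome lid. The COP9 genes had a median of 0.09 with 5 of 9 above 0, and eIF3 one of 0.09 with 8 of 13 above 0. The CCT chaperonin, which folds actin and tubulin, had a median of 0.32 with 7 of 8 above 0, the same as the lid to 2 decimals. In these complexes, 1 gene was past 1.5-fold, Cops7a at -0.59, and its other probe gave 0.27.

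**Figure D4:**
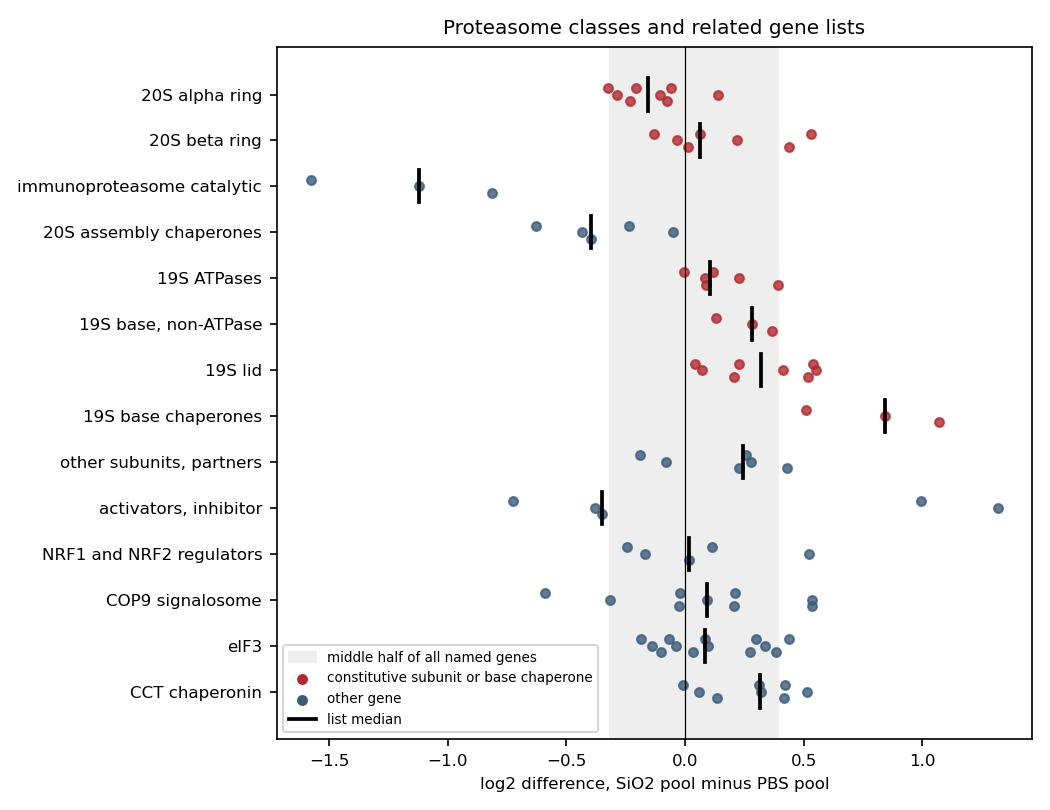
Log2 difference between the pools (horizontal axis) for each gene of the proteasome classes and of related gene lists (rows), with 1 point for each gene and a bar at the list median. The shaded band runs from -0.32 to 0.39, the quartiles of all named genes, and the points outside it include the immunoproteasome genes on the left and Psmd9 and Psmf1 on the right.

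Promoters were examined because NRF1 acts on proteasome genes through the antioxidant response element. RefSeq windows of 300 bases (GRCm38.p6), from 250 before to 50 after the start, were matched by symbol for 29 of the 36 genes. These genes had 31 windows, and a gene was counted if any of its windows held a match. The shares over all windows are per window, so the units of the shares below differ. The core TGACNNNGC, read on both strands, was in the windows of 5 of the 29 genes (17.2%) and in 12.4% of all 32851 windows. These genes were Psmb5, Psmb6, Psmc6, Psmd9 and Psmd12, and their differences ran from -0.03 to 1.07. The CCAAT box was in 12 of 29 (41.4%) against 37.4% of all windows, and the interferon-response core, GAAA repeated after any 2 bases, in 3 of 29 (10.3%), Psmb3, Psmd4 and Psmd9, against 3.44%. The medians of the differences were 0.23 with and 0.13 without the antioxidant core, and 0.07 with and 0.28 without the CCAAT box. A match is a description of the letters and not a site, and no match says only that the letters are not in the window.

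The 250 bases before the start are shown for the genes at the ends of the range and for a pair of cutting subunits, in the direction of the gene, with matches in capitals. Psmd9, the member with the highest difference, had the antioxidant core starting 31 bases before the start and the interferon-response core starting 159 before it. Psmb5 and Psmb6, both near 0, had the antioxidant core 47 and 9 bases before the start. Psmd5, the other base chaperone past 1.5-fold, and Psma5, the lowest, had no match.
Psmd9, chr5:123227940-123228189, + strand: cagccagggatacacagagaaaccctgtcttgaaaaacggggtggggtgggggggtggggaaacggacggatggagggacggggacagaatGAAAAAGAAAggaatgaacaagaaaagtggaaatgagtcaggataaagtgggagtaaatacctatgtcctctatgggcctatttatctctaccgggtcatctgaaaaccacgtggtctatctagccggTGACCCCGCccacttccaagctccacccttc
Psmd5, chr2:34870963-34871212, - strand: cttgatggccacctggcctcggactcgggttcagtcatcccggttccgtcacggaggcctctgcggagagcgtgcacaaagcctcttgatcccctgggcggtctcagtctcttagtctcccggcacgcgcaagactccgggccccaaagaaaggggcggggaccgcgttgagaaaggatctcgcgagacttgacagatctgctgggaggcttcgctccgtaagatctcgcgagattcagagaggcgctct
Psma5, chr3:108256676-108256925, + strand: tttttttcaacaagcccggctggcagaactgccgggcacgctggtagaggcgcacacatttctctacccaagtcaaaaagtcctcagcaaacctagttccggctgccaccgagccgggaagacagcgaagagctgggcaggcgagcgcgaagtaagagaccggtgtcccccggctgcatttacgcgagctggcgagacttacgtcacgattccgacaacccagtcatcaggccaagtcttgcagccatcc
Psmb5, chr14:54617996-54618245, - strand: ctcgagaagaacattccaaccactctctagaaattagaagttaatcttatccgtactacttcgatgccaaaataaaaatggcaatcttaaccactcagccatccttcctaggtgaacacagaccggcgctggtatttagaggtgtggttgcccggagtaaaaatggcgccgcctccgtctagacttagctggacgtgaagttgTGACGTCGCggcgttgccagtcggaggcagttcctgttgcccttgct
Psmb6, chr11:70525107-70525356, + strand: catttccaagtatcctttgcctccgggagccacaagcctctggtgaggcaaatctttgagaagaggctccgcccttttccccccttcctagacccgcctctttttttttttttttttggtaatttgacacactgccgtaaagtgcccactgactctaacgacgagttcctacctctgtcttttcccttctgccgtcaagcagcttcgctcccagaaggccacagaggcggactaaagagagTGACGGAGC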

How the data were processed

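Per the labels, Cy3-labelled cRNA of each pool was hybridised to 1 Agilent array. The deposited scanner files hold spot intensity on a linear scale, background-subtracted by Agilent Feature Extraction 11.0.1.1 per the file headers, and the submitters' processing notes give 9.1. The series matrix deposited by the authors gives log2 values, with medians of 5.68 in both columns. Over probes above background they followed log2 of the scanner signal with slopes of 0.994 (PBS) and 1.01 (SiO2), so scale and direction are known, and how they were centred is not stated.

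Outlier-flagged spots (145 and 148) were left out, and 0 spots were saturated. Values were log2 intensity minus the array's 75th percentile, averaged over repeated spots. Of 39398 probes, 27217 (69.1%) were named by accession from the RefSeq table of GRCm38.p6, used for names only. A gene was given by its brightest probe among those well above background on at least 1 array, and a dim value was raised to the lowest signal above background (7.37 and 6.14). Every member is described, and from each other list the genes past 1.5-fold or else the highest and lowest, apart from genes whose results are not reported here. Members and lists were chosen with earlier results of these data known. Alternatives used limma 3.58.1 (normexp on the median spot signal with an offset of 50, quantile, cyclic loess) in R 4.3.3 and Python 3.11.15. The steps were tested on simulated data.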

Additional observations from a re-analysis of the deposited data

How the results depend on the processing

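Over the 10 alternatives the median difference of the family moved by less than the technical SD of 0.062 except with B and T cell markers set to a median difference of 0, where it was 0.49, and where the number of members at least 1.5-fold higher was 13 in place of 3. In the authors' deposited values that number was 1, over 28 members. The number at least 1.5-fold lower was 0 throughout, and the share above 0 ranged from 63.9% (23 of 36, quantile normalization) to all 36 (lymphocyte scaling), with 18 of 28 in the deposited values. The alternatives moved the median of all named genes to 0.18 under normexp and 0.38 under lymphocyte scaling. The family's median under normexp, at 0.13, was below that of all named genes, while in the main setting it was above. Shares of all genes above 0 were counted only in the main setting, at 52.3%, and with lymphocyte scaling, at 77.2%. Leaving that scaling out, 22 of 26 members above 0 and 7 of 10 below 0 kept their sign under the other 9. Leaving out the filter, requiring a signal above background on both arrays, and keeping flagged spots each changed the sign of 0 members. The 8 members with no match in the deposited values were judged over fewer alternatives. Of the further genes past 1.5-fold that are named, Ube2ql1 reversed, at 0.18 under normexp. No paired analysis was possible because each group had 1 array. Leaving out Psmc3ip and Psma8, an alternative chosen after seeing the data, left 2 members past 1.5-fold. Single pools and single spots per probe limit every value, and Psma8 lay close to background.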

Other observations

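Further genes of the ubiquitin system were chosen after their values were seen, so their values are a description. Of 33 genes of the Ube2 family of ubiquitin-conjugating enzymes above background, 8 were higher with SiO2 by 1.5-fold or more, against 16.0% of all genes, and 3 lower, against 12.3%, with a median of 0.04. Ube2c, the enzyme that works with the anaphase-promoting complex in mitosis, had a signal of 1649 in PBS and 4934 in SiO2 and was 4.27-fold higher. Ube2o, which tags surplus proteins in maturing red cells, had 3275 and 6977 and was 3.04-fold higher. Ube2t, which acts in the Fanconi anaemia pathway, was 2.52-fold higher with 58.1 and 103, and its log2 difference was 1.34, or 0.86 under normexp. Ube2l6 was 2.19-fold higher (3777 and 5794) and Ube2h 2.14-fold higher (114 and 171). On the lower side, Ube2e2 was 1.91-fold lower (654 and 240) and Ube2q1 1.60-fold lower (1355 and 595), both above background in both pools. Ube2ql1 had a signal of 23.1 in PBS and one of 6.88 in SiO2 that was not well above background, and its log2 difference of -1.23 turned to 0.18 under normexp.

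Trim58, a ubiquitin ligase of late erythroblasts, was 6.05-fold higher (42.0 and 178), a log2 difference of 2.60 that was 1.70 under normexp. Ubac1 was higher by 2.49-fold (9383 and 16405) and Fbxo7, which binds the proteasome inhibitor encoded by Psmf1, 1.56-fold (5913 and 6461). Erythroid and cell cycle markers were higher in the same pool, and their part in these values was not tested.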
